A study of Homo sapiens with 26 samples.

Results

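VSNL1, ZBED2, SYTL2, KLK5, HTR7 and MKX are 6 protein-coding genes whose RNA levels set the S181E and Y396E populations of engineered HCT116 cells apart from the WT and RQ populations. They were 6 of the 9099 protein-coding genes tested and of the 63086 genes counted. The genes were selected on measured values, namely the differences of the S181E and Y396E populations from WT, so those differences are given below as a description without a test. The data were poly(A) RNA sequencing counts from 26 libraries of HCT116, a human colorectal carcinoma cell line. Of these, 24 libraries came from 4 populations with IGF2BP2 KO, IGF2BP3 KO and Tet-OsTIR1-PURO in their genotype, each carrying an mCherry-IGF2BP1 transgene introduced by lentivirus. IGF2BP1 is an RNA-binding protein whose folded domains are joined by disordered linkers. The transgene encoded the wild-type protein (WT), a glutamate in place of a serine of the first linker (S181E) or of a tyrosine of the second (Y396E), or the RQ mutant with the changes R167Q, R168Q, R174Q and R178Q in the first linker. Dishes of each population received PBS (control) or 500 µM sodium arsenite for a period of 2 h, and 3 separately plated dishes per treatment were sequenced. The other 2 libraries came from parental HCT116 cells without the transgene, 1 in control and 1 in arsenite. The knockout line was derived from single-cell clones and each construct was read in 1 sorted population, so the construct and the history of its population cannot be told apart. In bulk RNA, fewer cells that express a gene and less RNA per cell cannot be told apart either.

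The 6 genes encode proteins of different kinds. VSNL1 (visinin-like 1) is a calcium sensor of the neuronal calcium sensor family, which changes its membrane binding when calcium rises, and HTR7 is a serotonin receptor that couples to Gs and raises cyclic AMP. SYTL2 (synaptotagmin-like 2) is an effector of the RAB27 GTPases, which tether secretory vesicles to the plasma membrane, and KLK5 is a secreted serine protease of the kallikrein family that activates other kallikreins in skin. ZBED2 is a BED-type zinc finger transcription factor that restrains interferon-responsive genes in other epithelial cells, and MKX (Mohawk) is a homeobox transcription factor of the TALE class known for tendon. Sodium arsenite causes oxidative stress, which halts most translation and drives RNA and proteins into stress granules.

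Library depth ranged from 22508145 to 50834401 counts. IGF2BP1, the transgene, had 0.348 CPM in the parental control library and 0.646 CPM in the parental arsenite library, and between 10.6 and 48.0 CPM in the 24 engineered libraries. Its means in WT, RQ, S181E and Y396E were 12.1, 14.4, 18.7 and 16.5 CPM in control. In arsenite they were 29.2, 47.2, 43.4 and 43.3 CPM. The WT libraries lay below those of S181E and Y396E in both treatments, and the part of this in the levels of the 6 genes was not tested. CPM is the read count scaled to a common total of counts over the tested genes, with factors by trimmed mean of M-values. The Y396E arsenite replicate 3 stood apart from the other libraries, with counts in 13897 genes against at least 20850 in each of the other 23 engineered libraries. The tests on the 6 genes that compare the Y396E arsenite group are given with and without it. The other tests share 1 estimate of the spread with it and are given with it. Protein-coding genes held 89.5% to 91.7% of the counts in the WT and RQ control libraries, 94.7% to 95.9% in the S181E and Y396E control libraries and 93.2% in the parental control library. The part of this difference in the levels below was not tested. Epithelial markers were present in all libraries, with a summed level of 3670 to 5850 CPM over the 24 engineered libraries, and EPCAM reached 493 CPM. Not all of the 12 were present. VIL1, CDX1 and LGR5 stayed below 1 CPM in each library and KRT20 reached 3.25 CPM. KRT8, KRT18 and KRT19 averaged 957, 754 and 860 CPM in WT control cells. The immune markers summed to at most 1.13 CPM and the endothelial markers to at most 0.928 CPM.

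A gene was tested when it exceeded 10 CPM in at least 12 of the 24 engineered libraries. All 6 genes passed, but 4 of them passed through 1 side alone. VSNL1 exceeded the limit in the 12 S181E and Y396E libraries and in 0 of the 12 WT and RQ libraries, and KLK5, HTR7 and MKX exceeded it in the 12 WT and RQ libraries and in 0 of the others. ZBED2 exceeded it in 12 S181E and Y396E libraries and 1 other, and SYTL2 in 12 and 6. Ranked by the smaller of the S181E and Y396E differences from WT in control, the genes just inside and just outside the selection were SYTL2 at 2.35 and BMP4 at 1.60 on the log2 scale among the higher genes. Among the lower genes they were MKX at -2.23 and PRSS22 at -1.74.

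Since the 6 genes lie apart in the genome yet changed together, the sequences before their starts are shown for comparison. Of the 6 genes, 5 had an entry in the RefSeq promoter table of GRCh38.p14, and SYTL2 had none. The 250 bases before the start are given 5′ to 3′ on the strand of the gene, at chr2:17539722-17539971 (plus strand, the first of 2 starts) for VSNL1, chr3:111595347-111595596 (minus) for ZBED2, chr19:50953039-50953288 (minus) for KLK5, chr10:90858040-90858289 (minus) for HTR7 and chr10:27745820-27746069 (minus) for MKX. The starts are those of RefSeq and differ for VSNL1, KLK5 and MKX from the gene limits used for counting. The VSNL1 window lies within the gene as counted, the MKX window lies mostly within it, and the KLK5 window overlaps it. Capitals mark matches to 6 motifs on either strand, and no match overlapped another. The letters searched were TATAAA for the TATA box that positions RNA polymerase, GGGCGG for the GC box of the SP family and CCAAT for the box read by NF-Y. CANNTG stood for the E box of helix-loop-helix factors, TGANTCA for the site of AP-1 and CCGGAAG for that of ETS factors.
VSNL1: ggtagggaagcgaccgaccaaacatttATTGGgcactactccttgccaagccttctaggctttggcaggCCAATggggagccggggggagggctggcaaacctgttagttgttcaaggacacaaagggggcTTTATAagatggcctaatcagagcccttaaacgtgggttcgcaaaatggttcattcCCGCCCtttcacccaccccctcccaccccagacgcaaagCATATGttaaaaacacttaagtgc
ZBED2: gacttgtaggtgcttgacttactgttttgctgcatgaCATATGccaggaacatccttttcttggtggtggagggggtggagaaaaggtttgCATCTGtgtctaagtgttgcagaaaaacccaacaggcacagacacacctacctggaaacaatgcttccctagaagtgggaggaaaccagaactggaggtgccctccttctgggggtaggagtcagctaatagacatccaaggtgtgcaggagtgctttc
KLK5: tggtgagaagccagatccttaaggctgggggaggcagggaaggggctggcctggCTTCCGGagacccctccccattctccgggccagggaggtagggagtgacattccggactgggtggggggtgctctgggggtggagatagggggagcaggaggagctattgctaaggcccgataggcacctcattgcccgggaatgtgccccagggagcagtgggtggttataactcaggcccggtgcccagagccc
HTR7: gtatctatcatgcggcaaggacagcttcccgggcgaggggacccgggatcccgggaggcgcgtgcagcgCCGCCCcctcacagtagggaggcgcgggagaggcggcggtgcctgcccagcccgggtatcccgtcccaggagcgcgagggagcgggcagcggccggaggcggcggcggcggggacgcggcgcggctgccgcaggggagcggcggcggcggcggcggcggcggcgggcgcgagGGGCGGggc
MKX: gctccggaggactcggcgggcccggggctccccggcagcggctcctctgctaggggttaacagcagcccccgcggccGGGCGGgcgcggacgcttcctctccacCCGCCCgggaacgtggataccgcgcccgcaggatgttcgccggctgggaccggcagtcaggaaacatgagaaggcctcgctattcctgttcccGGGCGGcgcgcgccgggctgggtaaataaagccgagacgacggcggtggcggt

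No motif was present in all 5 windows. VSNL1 held a TATA box, a GC box, 2 CCAAT boxes and an E box. ZBED2 held 2 E boxes, and KLK5 held an ETS match alone. HTR7 held 2 GC boxes and MKX held 3. Over all 35116 windows of the same length in the table, a GC box was present in 42.6%, an E box in 61.8%, a CCAAT box in 32%, a TATA box in 10.7%, an ETS match in 8.52% and an AP-1 match in 6.57%. The windows of HTR7 and MKX were rich in CG dinucleotides, with 41 and 34 against a median of 11 over all windows. ZBED2 held 0, VSNL1 held 7 and KLK5 held 6. The genes higher in S181E and Y396E had 7 or fewer CG dinucleotides where shown and those lower in them had 6 to 41, so the ranges overlapped. Over all windows the 10th and 90th percentiles were 1 and 31. A relation of CG content to the direction of the difference was not tested. A match is a string of letters and was not tied to binding of any factor here.

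VSNL1, the calcium sensor, was low in WT and RQ cells and high in S181E, Y396E and parental cells, and it was not called for arsenite in any population. In control it had 2.49, 2.04 and 2.18 CPM in the 3 WT libraries and 1.89, 2.09 and 2.35 CPM in the RQ libraries. The S181E libraries had 17.2, 16.3 and 16.3 CPM, the Y396E libraries 13.9, 13.5 and 15.3 CPM and the parental library 18.2 CPM. The 6 mutant libraries and the parental library lay above all 6 WT and RQ libraries, without overlap. In arsenite the values were 2.06, 2.30 and 2.76 CPM in WT, 1.51, 2.20 and 2.10 CPM in RQ, 16.5, 17.1 and 17.5 CPM in S181E, 13.7, 15.1 and 14.4 CPM in Y396E and 18.4 CPM in parental cells. The order RQ, WT, Y396E, S181E, parental was the same in both treatments, and the RQ and WT ranges overlapped. VSNL1 exceeded WT by 2.88 ± 0.12 (log2 ± SE) in S181E and by 2.66 ± 0.12 in Y396E in control, which are folds of 7.38 and 6.33. The parental counts of 524 and 656 gave 95% Poisson intervals of 16.7 to 19.8 CPM and 17.0 to 19.9 CPM, which cover counting error only.

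SYTL2, the RAB27 effector, had low levels in WT and RQ and high levels in both glutamate mutants, rose in arsenite in each engineered population, and held an intermediate level in parental cells. The control values were 6.42, 6.38 and 5.35 CPM in WT, 5.52, 6.03 and 5.93 CPM in RQ, 28.9, 32.3 and 31.4 CPM in S181E and 33.1, 36.2 and 34.7 CPM in Y396E. The parental control library had 11.5 CPM (Poisson interval 10.3 to 12.9), above each WT and RQ library and below each mutant library. In arsenite SYTL2 reached 15.1, 14.5 and 14.2 CPM in WT, 12.9, 11.1 and 12.7 CPM in RQ, 66.4, 65.9 and 68.4 CPM in S181E and 70.3, 73.1 and 65.8 CPM in Y396E. The parental arsenite library had 22.6 CPM (21.1 to 24.2), again between the groups. The differences from WT in control were 2.35 ± 0.08 in S181E and 2.52 ± 0.08 in Y396E on the log2 scale.

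ZBED2, the zinc finger factor, showed both the population difference and the largest arsenite change of the 6 genes. Its control values were 10.7, 10.2 and 12.2 CPM in WT, 5.39, 7.48 and 6.23 CPM in RQ, 62.9, 64.6 and 62.2 CPM in S181E and 66.5, 70.0 and 79.2 CPM in Y396E. The parental control library had 50.5 CPM (47.9 to 53.1), below the mutants and above the WT libraries. Arsenite lowered ZBED2 to 2.69, 3.01 and 2.76 CPM in WT, 1.55, 1.29 and 1.99 CPM in RQ, 20.3, 17.6 and 21.6 CPM in S181E and 23.8, 19.6 and 16.8 CPM in Y396E, and the parental arsenite library had 15.3 CPM (14.1 to 16.7). No arsenite library overlapped a control library of its population. ZBED2 exceeded WT in control by 2.52 ± 0.12 in S181E and 2.7 ± 0.12 in Y396E on the log2 scale. It was also the single gene of the 6 with a called difference between RQ and WT.

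HTR7, the serotonin receptor, was low in both mutant populations. In control it had 38.3, 37.8 and 37.2 CPM in WT, 35.8, 32.0 and 34.3 CPM in RQ, 4.92, 5.61 and 5.94 CPM in S181E and 6.11, 5.07 and 3.93 CPM in Y396E. The parental control library had 8.41 CPM (7.39 to 9.54), above both mutants and far below WT and RQ. In arsenite the values were 19.3, 19.1 and 19.2 CPM in WT, 21.1, 19.5 and 19.3 CPM in RQ, 3.41, 3.17 and 3.66 CPM in S181E, 3.58, 2.54 and 1.53 CPM in Y396E and 5.37 CPM (4.63 to 6.18) in parental cells. The lowest of these, 1.53 CPM, was the Y396E library that stood apart, and the Y396E mean of 2.55 ± 1.03 CPM (SD, n = 3) became 3.06 ± 0.735 CPM (SD, n = 2) without it. HTR7 differed from WT in control by -2.78 ± 0.15 in S181E and -2.91 ± 0.16 in Y396E on the log2 scale.

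KLK5, the kallikrein protease, followed the same division. The control libraries had 25.5, 29.9 and 24.5 CPM in WT, 24.8, 24.8 and 21.8 CPM in RQ, 3.64, 3.74 and 3.38 CPM in S181E and 5.02, 3.79 and 4.21 CPM in Y396E. Parental cells had 7.40 CPM in control (6.44 to 8.47), nearer to the mutants and outside their range. After arsenite KLK5 stood at 14.4, 12.5 and 15.2 CPM in WT, 12.4, 12.9 and 12 CPM in RQ, 2.93, 1.90 and 2.71 CPM in S181E, 3.62, 2.93 and 3.8 CPM in Y396E and 4.95 CPM (4.24 to 5.73) in parental cells. Its differences from WT in control were -2.89 ± 0.13 in S181E and -2.61 ± 0.13 in Y396E.

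MKX, the homeobox factor, was low in the mutants and high in the parental control library. In control it had 22.3, 22.7 and 22.9 CPM in WT, 22.4, 26.1 and 26.3 CPM in RQ, 3.87, 4.71 and 4.76 CPM in S181E and 5.24, 3.83 and 5.33 CPM in Y396E. The parental control library had 26.5 CPM (24.6 to 28.4), the highest value of the 13 control libraries. In arsenite MKX had 17.2 CPM in each WT library, 16.9, 22.2 and 22.8 CPM in RQ, 3.23, 3.88 and 3.03 CPM in S181E, 5.09, 3.73 and 2.35 CPM in Y396E and 18.4 CPM (17.0 to 19.9) in parental cells. The parental arsenite value lay within the range of the WT and RQ libraries. MKX differed from WT in control by -2.35 ± 0.17 in S181E and -2.23 ± 0.17 in Y396E.

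**Figure D1:**
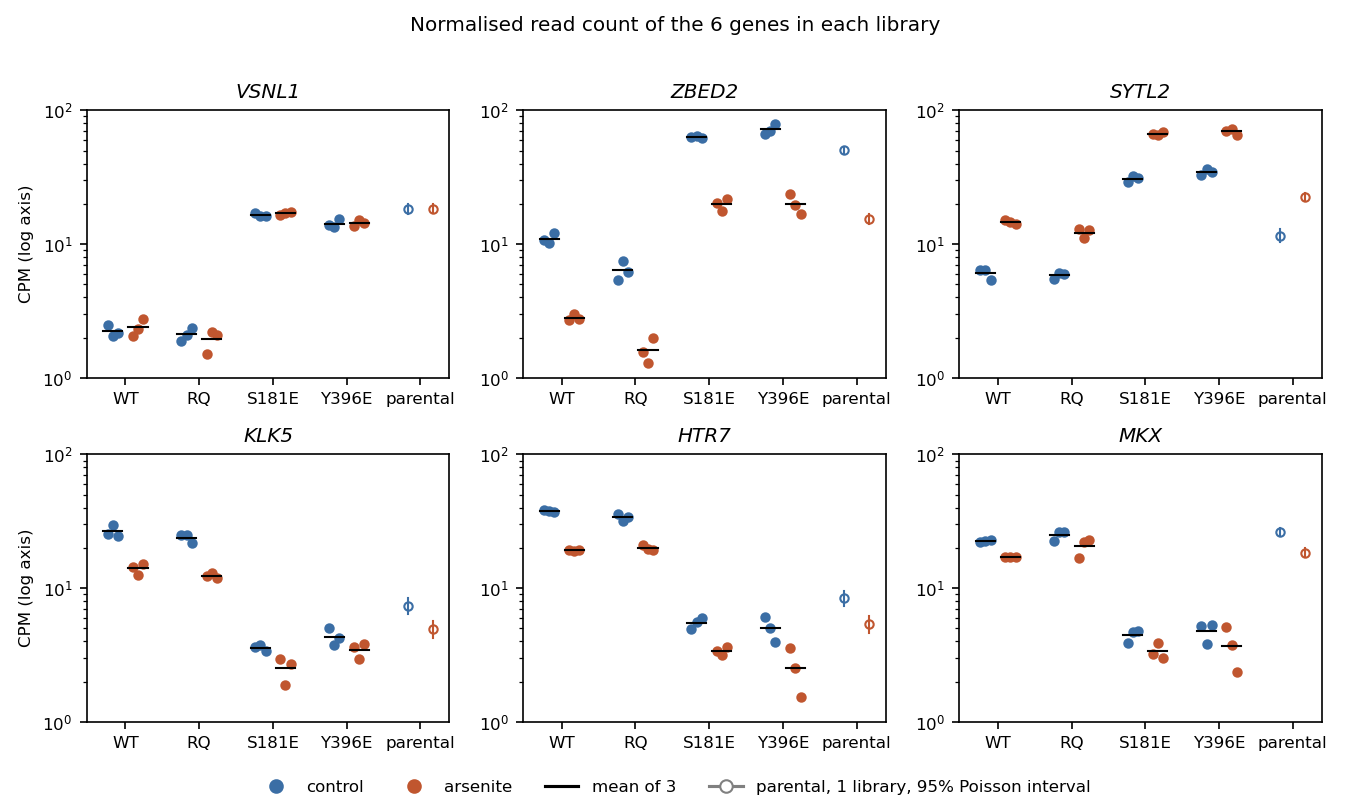
CPM of the 6 genes on a log axis in each library, by population, with control libraries in blue, arsenite libraries in orange, black bars for the means of 3 and open circles with 95% Poisson intervals for the single parental libraries. VSNL1, ZBED2 and SYTL2 sit higher in S181E and Y396E, KLK5, HTR7 and MKX sit lower, and the parental MKX values of 26.5 and 18.4 CPM sit with WT and RQ.

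Levels of different genes can be compared only per length, as CPM per kb of exon. In WT control cells the mean levels were 17.0 CPM per kb for KLK5, 10.9 for HTR7, 5.88 for MKX, 4.98 for ZBED2, 0.693 for VSNL1 and 0.655 for SYTL2. In S181E control cells the order was ZBED2 at 28.6 CPM per kb, VSNL1 at 5.15, SYTL2 at 3.34, KLK5 at 2.29, HTR7 at 1.58 and MKX at 1.15. In the parental control library ZBED2 again led at 22.8 CPM per kb and MKX came next at 6.88, followed by VSNL1 at 5.65, KLK5 at 4.72, HTR7 at 2.42 and SYTL2 at 1.25. The protease and the receptor were thus the most abundant of the 6 RNAs per length in WT cells, and the zinc finger factor in S181E and parental cells.

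Which side the parental line resembled was read from log2 CPM, on a scale where the mean of the 6 WT and RQ libraries of a treatment is 0% and that of the 6 S181E and Y396E libraries is 100%. In control, the parental library stood at 108.8% for VSNL1, 86.2% for ZBED2, 75.2% for HTR7 and 66.0% for KLK5, all nearer to the mutants. It stood at 38.9% for SYTL2 and -6.8% for MKX, nearer to WT and RQ. The parental arsenite library gave 108.3% for VSNL1, 88.4% for ZBED2, 67.6% for HTR7, 65.1% for KLK5, 32.2% for SYTL2 and 1.1% for MKX, with the same sides. In control no parental value fell inside the range of either side. It lay beyond both for VSNL1 and MKX and between them for the other 4 genes. Parental RNA was read in 1 library per treatment, so these placements have no replicate check.

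The parental line was therefore nearer to WT and RQ for 2 of the 6 genes in each treatment. Over all genes whose 6 WT and RQ libraries did not overlap the 6 mutant libraries and whose means differed by more than 1 on the log2 scale, it was nearer to WT and RQ for 69.8% in control (60 of 86 genes) and for 72.3% in arsenite (47 of 65 genes). Among those genes, 11 were higher in the mutants in control and 5 of the 11 had the parental library nearer to WT and RQ. Of the 75 lower genes, 55 did. The median parental position over the 86 genes was 29.8% in control and over the 65 genes 17.4% in arsenite. Both engineered groups differ from the parental line by the knockouts and the transgene, and these placements do not tell which group moved.

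**Figure D2:**
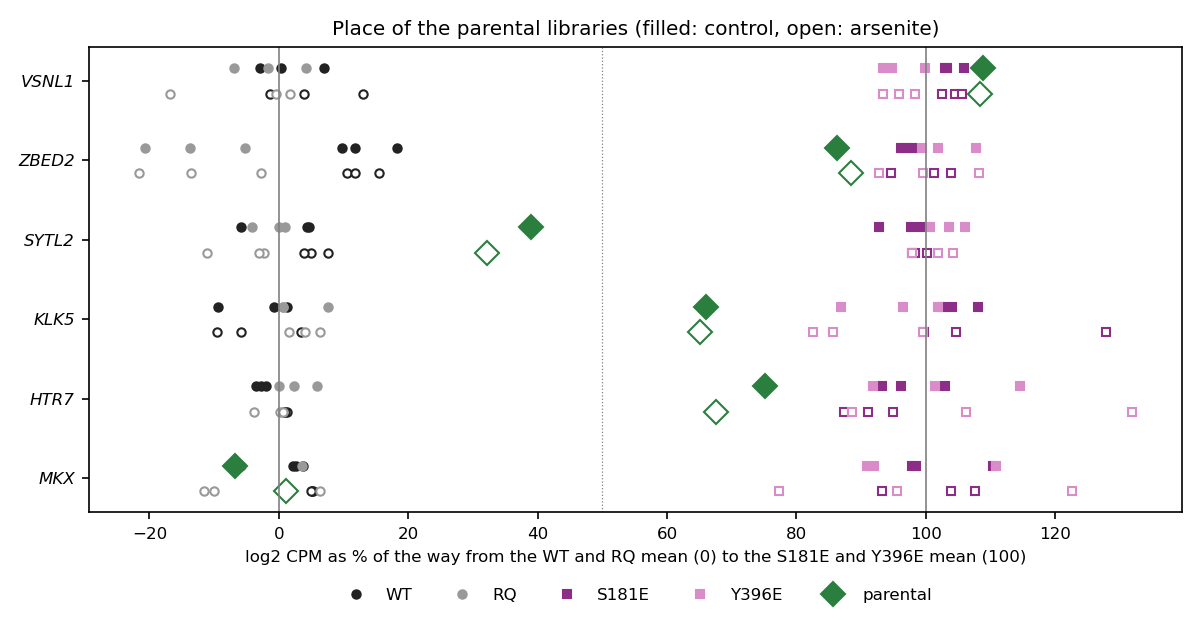
Position of each library for the 6 genes, as the percentage of the way in log2 CPM from the WT and RQ mean (0) to the S181E and Y396E mean (100), with filled symbols for control, open symbols for arsenite and diamonds for the parental libraries. The parental diamonds lie past 100 for VSNL1 (108.8% and 108.3%), past the dotted midpoint for ZBED2, KLK5 and HTR7, at 38.9% and 32.2% for SYTL2 and at -6.8% and 1.1% for MKX.

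Whether arsenite moved each gene was tested within each population. The contrasts in WT, S181E and Y396E share their libraries of both treatments with the differences that chose the genes, and the contrast in RQ does not. A call needed an adjusted p under 0.05 over the 9099 genes in edgeR's quasi-likelihood test and a fold above 1.2. In WT, 5 of the 6 genes were called, 1 higher and 4 lower, beside 72.2% of all tested genes. In RQ, S181E and Y396E, 4 of the 6 were called in each, 1 higher and 3 lower, beside 72.9%, 65.3% and 65.8% of all tested genes. These shares are near the background. Without the library that stood apart, 4 of the 6 were again called in Y396E, beside 65.6% of all tested genes.

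ZBED2 fell in the 4 engineered populations, by 1.96 ± 0.15 in WT, by 1.96 ± 0.17 in RQ, by 1.67 ± 0.12 in S181E and by 1.85 ± 0.11 in Y396E on the log2 scale (edgeR adjusted p = 7.47e-12, 1.81e-10, 2.88e-12 and 3.41e-13). In the parental pair it differed by -1.72. Without the library that stood apart, the changes in Y396E were -1.74 ± 0.10 for ZBED2, 1.05 ± 0.06 for SYTL2 and 0.02 ± 0.09 for VSNL1. SYTL2 rose by 1.27 ± 0.08, 1.07 ± 0.09, 1.12 ± 0.07 and 1.01 ± 0.07 in WT, RQ, S181E and Y396E (edgeR adjusted p = 6.21e-13, 2.60e-11, 3.38e-13 and 2.01e-12), and the parental libraries differed by 0.96. These 2 genes had large changes of opposite sign although both were high in the mutants. VSNL1, also high in the mutants, was not called in any population, with log2 changes of 0.09 ± 0.14, -0.10 ± 0.15, 0.03 ± 0.10 and 0.02 ± 0.10 (edgeR adjusted p = 0.549, 0.611, 0.763 and 0.871) and 0.02 in the parental pair.

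The 3 genes low in the mutants had arsenite changes that were negative throughout. HTR7 fell by 0.98 ± 0.14 in WT, by 0.77 ± 0.14 in RQ, by 0.68 ± 0.18 in S181E and by 1.00 ± 0.18 in Y396E (edgeR adjusted p = 5.56e-07, 1.82e-05, 0.00125 and 2.21e-05), and the parental difference was -0.64. Without the Y396E library that stood apart, the change in Y396E was -0.75 ± 0.15 (edgeR adjusted p = 3.67e-05). KLK5 fell by 0.92 ± 0.12 in WT, 0.94 ± 0.12 in RQ and 0.50 ± 0.15 in S181E (edgeR adjusted p = 8.88e-08, 8.40e-08 and 0.00521). Its change of -0.35 ± 0.14 in Y396E passed as well (adjusted p = 0.0313), although the control and arsenite libraries of Y396E overlapped, and without the library that stood apart it was -0.44 ± 0.16 (0.0115). The call was lost without Y396E arsenite replicate 2 (adjusted p = 0.184) or Y396E control replicate 1 (0.19), with scaling by library totals (0.0615) and with the other populations left out of the fit (0.144). In the parental pair KLK5 differed by -0.58. MKX fell in WT by 0.39 ± 0.15 (edgeR adjusted p = 0.0214), a call lost with scaling by library totals (0.165). In RQ, S181E and Y396E its log2 differences were -0.27 ± 0.15, -0.41 ± 0.20 and -0.40 ± 0.19 (adjusted p = 0.11, 0.0621 and 0.0554), and the parental pair gave -0.52. Without the library that stood apart, the MKX change in Y396E was -0.18 ± 0.16 (adjusted p = 0.31). In S181E, which shares the estimate of the spread, the MKX change then passed at -0.41 ± 0.16 (edgeR adjusted p = 0.0166).

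**Figure D3:**
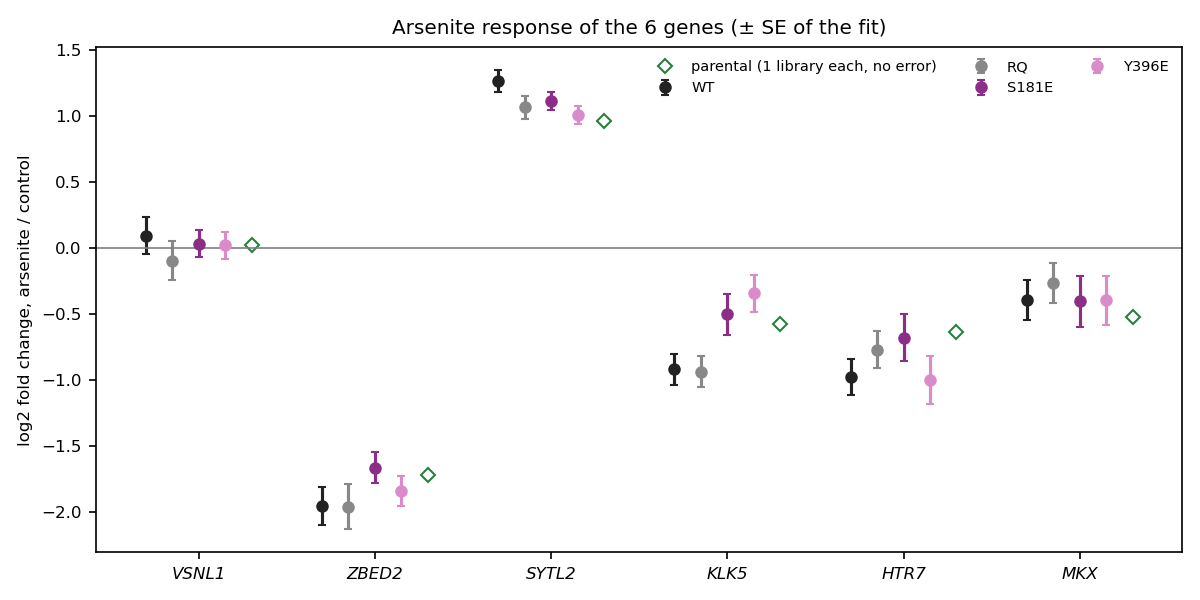
Log2 fold change of the 6 genes in arsenite against control, with SE bars from the fit for the engineered populations and diamonds without error for the single parental pair. ZBED2 lies between -1.96 and -1.67, SYTL2 between 0.96 and 1.27 and VSNL1 near 0, and the KLK5 change is -0.35 in Y396E and -0.92 in WT.

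The size of the arsenite response was compared between populations by the difference of the log2 changes. This difference equals that between the populations in arsenite minus that in control, and for S181E and Y396E such differences chose the genes. The S181E and Y396E values are therefore a description and no independent evidence. The response of RQ differed from that of WT for 0 of the 6 genes, beside 0.22% of all genes, and 0 of the 6 had an unadjusted p under 0.05. For S181E against WT, 0 of the 6 were called beside 16.4%, and 1 had an unadjusted p under 0.05. DESeq2 called 0 of the 6 in both. For Y396E, 1 of the 6 was called beside 21.5%. That gene was KLK5, at 0.58 ± 0.18 on the log2 scale, and it exceeded the limit for testing in the WT and RQ libraries alone. Its difference from WT was -2.61 in control and -2.04 in arsenite. Without the library that stood apart the value was 0.48 ± 0.18, beside 24% of all genes called. It was not called without WT arsenite replicate 2, WT control replicate 2, Y396E control replicate 2 or Y396E control replicate 3. In S181E the KLK5 value was 0.42 ± 0.20. For VSNL1, ZBED2, SYTL2, HTR7 and MKX the Y396E differences from WT ranged from -0.26 for SYTL2 to 0.11 for ZBED2, and without the library that stood apart from -0.21 for SYTL2 to 0.22 for ZBED2, HTR7 and MKX.

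RQ and the mutants among themselves were compared next, with contrasts in which RQ or S181E served as the partner. RQ differed from WT in 1 of the 6 genes in each treatment, beside 1.43% of all genes in control and 1.52% in arsenite. That gene was ZBED2, lower in RQ with a difference of -0.80 ± 0.14 on the log2 scale in control (edgeR adjusted p = 0.00116) and of -0.80 ± 0.19 in arsenite (adjusted p = 0.0205). The libraries of RQ and WT did not overlap in either treatment. The arsenite call was lost without RQ arsenite replicate 1 (0.0584), RQ arsenite replicate 2 (0.168), WT arsenite replicate 2 (0.113) or WT arsenite replicate 3 (0.0608). For the other 5 genes the RQ differences from WT were between -0.16 and 0.14 in control and between -0.28 and 0.27 in arsenite. The WT libraries are shared with the contrasts that chose the genes.

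Y396E and S181E differed in 0 of the 6 genes by edgeR in each treatment, beside 0.0% of all genes in control and 0.0% in arsenite. Unadjusted p-values under 0.05 were found for 2 of the 6 in control and 3 of the 6 in arsenite, and over all genes for 289 and 1375. DESeq2 called 1 of the 9099 genes in control and 9 in arsenite, none of them among the 6. VSNL1 differed by -0.22 ± 0.10 in control and -0.24 ± 0.10 in arsenite, and the Y396E libraries lay below the S181E libraries in both. SYTL2 was higher in Y396E by 0.17 ± 0.07 in control without overlap (adjusted p = 1) and differed by 0.06 ± 0.07 in arsenite, where the libraries overlapped. The largest values were those of HTR7 at -0.46 ± 0.19 and KLK5 at 0.44 ± 0.15 in arsenite (edgeR adjusted p = 0.296 and 0.264). Without the library that stood apart 0 of the 6 were called in arsenite, and the values there were -0.22 ± 0.16 for HTR7, 0.34 ± 0.17 for KLK5, -0.23 ± 0.09 for VSNL1 and 0.10 ± 0.06 for SYTL2.

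The selecting differences had the same sign in both treatments. Differences in both treatments are taken to have chosen the genes, so the shared sign is a description and no result. In arsenite S181E differed from WT by 2.83 in VSNL1, 2.81 in ZBED2, 2.20 in SYTL2, -2.48 in KLK5, -2.48 in HTR7 and -2.36 in MKX on the log2 scale. Y396E differed by 2.59, 2.82, 2.26, -2.04, -2.94 and -2.23 in the same order, and by 2.59, 2.92, 2.30, -2.13, -2.70 and -2.0 without the library that stood apart. Of all tested genes, 31.1% were called between S181E and WT in control and 13.7% in arsenite, and 28.6% and 21.7% between Y396E and WT. The last share was 18.4% without that library. These comparisons share their WT libraries.

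The genomic surroundings of the 6 genes differed. In this step genes were tested when they exceeded 1 CPM in at least 3 libraries, and 21.7% of those 12048 genes were called in both S181E and Y396E against WT in control and 10.2% in arsenite. VSNL1 (ENSG00000163032.12, chromosome 2, 17539126 to 17657018 in hg38, plus strand) had 3 tested genes within 500 kb. Of these, 2 were higher in both mutants in control and 1 in arsenite. Its neighbour SMC6, a subunit of a chromosome maintenance complex, was higher in control by 0.65 ± 0.13 in S181E and 0.51 ± 0.13 in Y396E. In arsenite SMC6 was not called, at 0.06 ± 0.12 and 0.27 ± 0.12 (edgeR adjusted p = 0.78 and 0.088). The short gene ZBED2 (ENSG00000177494.6), on the minus strand of chromosome 3 from 111592900 to 111595346, lies within the span of CD96 on the opposite strand, and reads were counted by strand. Of 6 tested genes within 500 kb of it, 4 were higher and 1 was lower in both mutants in control, and 3 and 1 in arsenite. CD96, an immune cell receptor, is counted among the 4 higher in control with differences of 2.21 ± 0.82 and 2.71 ± 0.81. Its control means were only 0.184 CPM in WT and 0.0492 in RQ against 0.927 and 1.31 CPM in the mutants. In arsenite it was not called (edgeR adjusted p = 0.142 and 0.195). PLCXD2, 79.3 kb away, differed by 0.82 ± 0.08 and 0.88 ± 0.08. SYTL2 (ENSG00000137501.18, chromosome 11, 85694224 to 85811159, minus strand) had 7 tested genes within 500 kb, with 1 higher in both mutants in control and 0 in arsenite. Its nearest neighbours CREBZF and PICALM differed by at most 0.30 in size.

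The lower genes also differed from each other in this respect. KLK5 (ENSG00000167754.13, chromosome 19, 50943303 to 50953093, minus strand) lies in the kallikrein cluster. Of 19 tested genes within 500 kb, 5 were lower and 1 was higher in both mutants in control, and 4 and 1 in arsenite. KLK6, separated from KLK5 by a gap of 5.54 kb between the gene ends, was lower, with differences of -1.53 ± 0.07 in S181E and -1.55 ± 0.07 in Y396E. KLK4 on the other side had differences of -0.64 ± 0.55 and -0.07 ± 0.54. HTR7 (ENSG00000148680.16, chromosome 10, 90740823 to 90858039, minus strand) had 2 tested genes within 500 kb and neither was called in both mutants. RPP30, 13.9 kb away, differed by 0.18 and 0.12. MKX (ENSG00000150051.14, chromosome 10, 27672874 to 27746060, minus strand) had 5 tested genes within 500 kb with 2 lower in both mutants in each treatment. ODAD2, a gene of ciliary dynein assembly 66.1 kb away, was lower, with differences of -1.78 ± 0.15 in S181E and -1.71 ± 0.15 in Y396E in control (edgeR adjusted p = 2.64e-09 and 6.17e-09), and RAB18 on the other side had differences of -0.06 and -0.04.

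**Figure D4:**
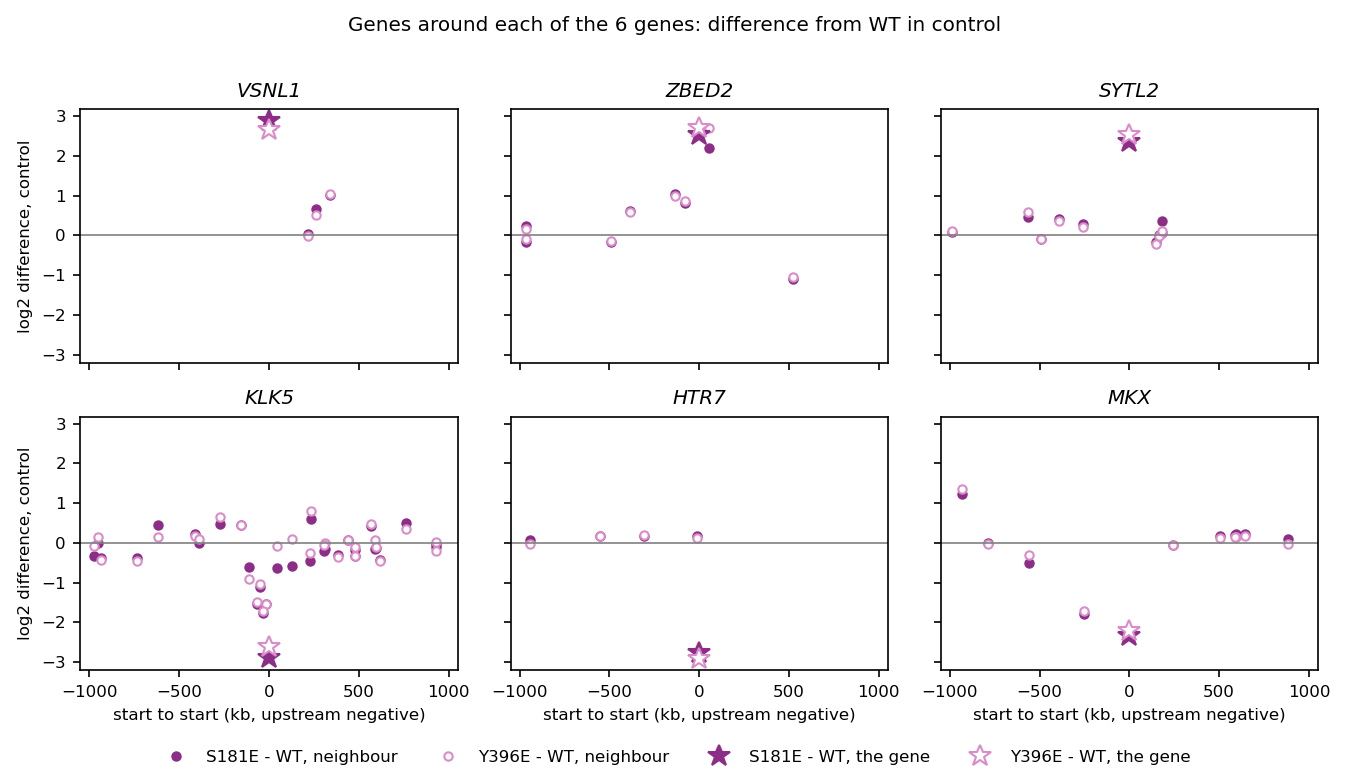
Log2 difference of S181E (filled) and Y396E (open) from WT in control for tested genes around each of the 6 genes, by the distance between starts in kb with upstream negative, and stars for the gene itself. A run of lower genes next to KLK5 spans KLK6, KLK7, KLK8 and KLK10, with KLK7 the lowest of them. In the MKX panel ODAD2 lies low and BAMBI lies high, at 1.225 in S181E and 1.356 in Y396E. The neighbours of HTR7 lie near 0 and those of SYTL2 between -0.213 and 0.587.

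The kallikrein list made the clearest group around a gene of the 6. It held 22 genes besides KLK5, namely kallikreins, their inhibitors, the receptor PAR2 and substrates, and 6 were tested. In control, 6 of 6 were lower in S181E and 6 of 6 in Y396E, beside 31.1% and 28.6% of all genes called in either direction, with medians of -1.33 and -1.25 against 0.019 and 0.015 over all tested genes. In arsenite, 4 of 6 were lower in each, with medians of -1.05 and -0.91. In control, KLK6 averaged 158 CPM in WT, 164 in RQ, 54.3 for S181E and 54.1 for Y396E, against 109 CPM in the parental library. KLK7, a protease activated by KLK5 in skin, had 151, 165, 44.5, 45.9 and 63.0 CPM. In the same order KLK10 had 72.6, 77.7, 24.9, 25.9 and 38.1 CPM, and KLK8 had 73.3, 76.3, 33.6, 36.1 and 33.4 CPM. The 4 kallikreins were thus lower together, and the parental library lay between the sides for KLK6, KLK7 and KLK10 and just under the S181E mean for KLK8. F2RL1, which encodes PAR2, and ST14, which encodes the protease matriptase, were lower by 0.41 to 0.55 in size in control, and in arsenite they differed from WT by 0.02 to 0.19. Neighbouring kallikreins share sequence, and how reads between them were split is not stated.

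**Figure D5:**
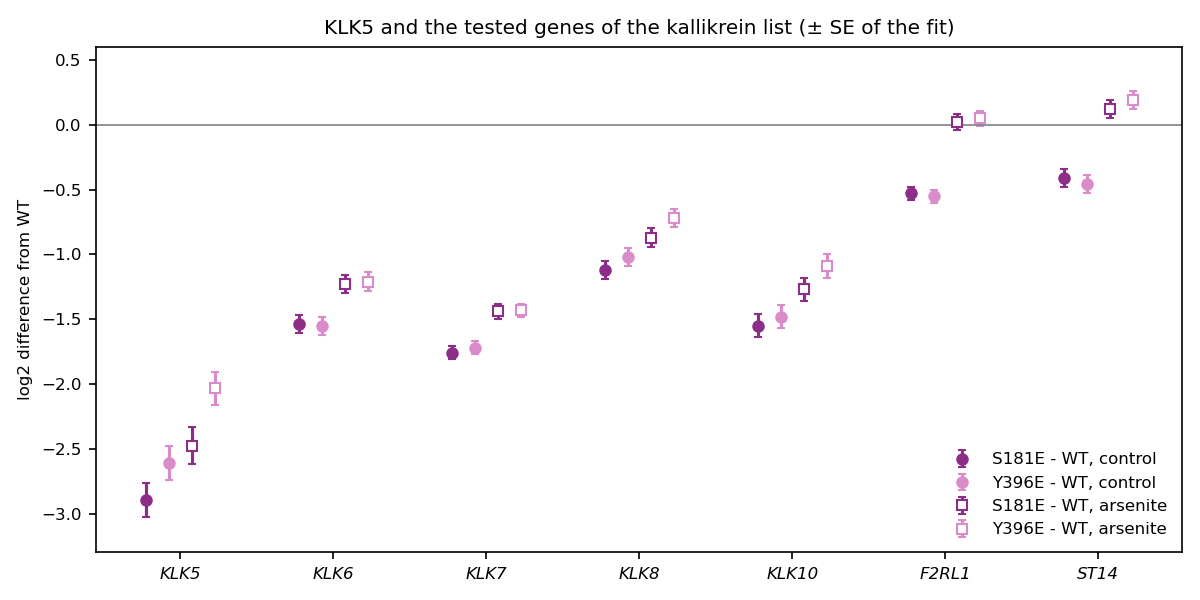
Log2 differences from WT of KLK5 and the tested genes of the kallikrein list, with SE bars from the fit, circles for control and squares for arsenite. KLK5 lies lowest, KLK6, KLK7, KLK8 and KLK10 lie between -1.76 and -0.72, and F2RL1 and ST14 lie near 0 in arsenite.

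The families and pathways of the other 5 genes showed less. Together with the kallikrein list, 54 list genes were tested, and 25 (46.3%) were called in S181E and 22 (40.7%) in Y396E in control, and 12 (22.2%) and 20 (37.0%) in arsenite. Of all tested genes, 31.1%, 28.6%, 13.7% and 21.7% were called in these comparisons. The count of 20 in Y396E in arsenite was 13 without the library that stood apart. With all libraries, the kallikrein list supplied 6 of the calls in each mutant in control and 4 in each in arsenite. In the neuronal calcium sensor family of VSNL1, 3 of 10 genes were tested. HPCAL4 was higher by 0.73 ± 0.11 in S181E and 0.73 ± 0.11 in Y396E in control (edgeR adjusted p = 4.94e-06 and 5.21e-06), HPCAL1 was lower, with differences of -0.39 and -0.34, and NCS1 was not called. HPCAL4 had 11.6 CPM in WT, 19.2 in S181E and 16.1 CPM in parental cells. In the RAB27 list of SYTL2, 4 of 12 genes were tested. SYTL3, a paralog, was higher by 0.62 ± 0.04 and 0.66 ± 0.04 in control (adjusted p = 3.25e-11 and 1.39e-11), and its parental level of 132 CPM was near the WT mean of 126 CPM. SYTL1 and RPH3AL were lower in both mutants in control, and MLPH in Y396E.

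For ZBED2, 3 of 7 further BED family genes were tested and 0 were called in the S181E and Y396E contrasts with WT, with log2 differences between -0.29 and 0.14. Of 32 interferon genes, 12 were tested. In control 2 were higher and 6 lower in S181E, and 2 were higher and 3 lower in Y396E, with medians of -0.26 and -0.17, beside 31.1% and 28.6% of all genes called in either direction. Of the 25 interferon genes above 1 CPM in at least 3 libraries, 3 were higher and 5 lower in S181E, and 4 higher and 4 lower in Y396E. Under the limit used elsewhere, in arsenite the counts were 1 and 1 in S181E and 2 and 4 in Y396E. IRF1, an interferon-induced transcription factor, was higher by 0.44 and 0.43 in control and differed by -0.15 and -0.36 in arsenite, and ISG15, IFIT5 and IFITM3 were lower in both mutants in control.

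For HTR7, 0 of 13 further serotonin receptors passed the limit for testing, and they summed to 5.18 to 17.6 CPM over the 24 engineered libraries. Of 24 genes of the cyclic AMP pathway, 17 were tested. In control 2 were higher and 1 was lower in S181E, and 1 was higher and 1 lower in Y396E, with medians of -0.01 and -0.07. PDE4B, a phosphodiesterase that degrades cyclic AMP, was lower, with differences of -1.07 ± 0.07 and -1.38 ± 0.07 in control and of -1.53 ± 0.07 and -1.94 ± 0.07 in arsenite (adjusted p = 1.88e-11, 2.97e-13, 3.02e-14 and 6.82e-16). Its mean was 62.4 CPM in WT, 29.7 in S181E, 24 in Y396E and 12.8 CPM in the parental library in control, so the parental value lay below both mutants.

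For MKX, 8 of 17 further TALE homeobox genes were tested, with 1 higher and 2 lower in S181E and 0 higher and 3 lower in Y396E in control. Of 12 tendon and collagen genes, 1 was tested and was not called, and DCN, a tendon proteoglycan, reached at most 0.039 CPM.

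Markers of cell types that could carry these genes were read as well. Of 10 neural markers 7 stayed below 1 CPM in the 26 libraries, ELAVL4 among them at 0. SYT1 was lower and ENO2 higher in both mutants in both treatments. Of 10 keratinocyte markers 8 stayed below 1 CPM, with KRT1 and LOR at 0, KRT5 at no more than 0.495 CPM and TP63 at no more than 0.234 CPM. KRT10 and SFN were expressed. In WT, RQ, S181E and Y396E control cells KRT10 averaged 124, 126, 118 and 124 CPM and SFN 523, 482, 465 and 486 CPM. Among the S181E and Y396E contrasts with WT, both were called only in Y396E in arsenite, higher by 0.34 each. The mesenchymal markers of the WT, RQ, S181E and Y396E populations summed to means of 24.5, 24.3, 28.0 and 28.9 CPM in control and of 57.4, 62.2, 80.5 and 99.6 CPM in arsenite. SNAI1 alone made up most of the arsenite sums, with 41.1, 45.6, 59.4 and 70.4 CPM, and was called higher in both mutants in arsenite. The Y396E arsenite means include the library that stood apart. CLDN4, a tight junction protein of the epithelial list, was lower, with differences of -1.44 ± 0.07 and -1.32 ± 0.07 in control, and 4 of 8 tested epithelial markers were lower and 1 higher in each mutant, beside 31.1% and 28.6% of all genes called. In arsenite 0 were higher and 1 lower in S181E, and 2 were higher and 1 lower in Y396E. The part of these shifts in the levels of the 6 genes was not tested.

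The genes most like each of the 6 were found by Pearson's r of log2 CPM over the 26 libraries, which share populations and treatments, and are given as a description. For VSNL1 they were PRDX1 (0.952), UFD1 (0.952) and PRCC (0.943). PRCC had 63.8 CPM in WT, 109 in S181E and 104 CPM in the parental control library. For ZBED2 they included MRPS34 (0.969) and ZWINT (0.968), and for SYTL2 they were PPFIBP1 (0.965), CEP55 (0.956) and TAGLN2 (0.956). PPFIBP1 had 31.3 CPM in WT, 61.9 in S181E and 37.4 in the parental control library, and rose in WT in arsenite by 0.80 on the log2 scale. KLK5 was most like KLK10 (0.984), KLK7 (0.982) and FADS1 (0.972). HTR7 was most like KLK7 (0.98), THEM6 (0.966) and SLC39A4 (0.963). MKX was most like CYC1 (0.984), SREBF2 (0.982) and TCEA1 (0.977), and SREBF2, a regulator of cholesterol synthesis, had 276 CPM in WT, 131 in S181E, 127 in Y396E and 266 CPM in the parental control library.

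Between the 6 genes, r was 0.961 for KLK5 with HTR7, 0.893 for KLK5 with MKX and 0.898 for HTR7 with MKX. It was 0.838 for VSNL1 with ZBED2, 0.826 for VSNL1 with SYTL2 and 0.516 for ZBED2 with SYTL2, the pair with opposite arsenite changes. Since the genes were chosen for the difference between populations, these values reflect that choice in part.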

How the data were processed

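Reads were trimmed, aligned to hg38 by STAR 2.7.11b and counted per gene by featureCounts (Subread 2.0.6). The deposited tables hold these raw counts as whole numbers, without normalization. Strand setting 2 and GENCODE release 46 were used for counting, per the file headers. Symbols were taken from GENCODE release 44, which matched 99.1% of 63086 identifiers. The RNA came from clarified lysates. Samples were grouped by their labels. No library pair was identical, and each library was used as 1 replicate. P-values measure the spread between separately plated dishes of 1 population.

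Protein-coding genes above 10 CPM in at least 12 of 24 libraries were fitted in edgeR 4.0.16 (R 4.3.3) with glmQLFit and glmQLFTest, 1 mean per group, TMM factors of 0.865 to 1.086 and 16 residual degrees of freedom. Benjamini-Hochberg adjustment ran over 9099 genes. Parental libraries were not part of this fit. Log2 CPM used a prior count of 2.

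The 6 genes, the lists and the tests were chosen with earlier results of these data known. Named genes are the 6, IGF2BP1, the 3 most correlated genes of each, the nearest tested gene on each side, and list genes called with a log2 change over 1 in both mutants in a treatment. Other list genes and markers were named after their values were seen, as were BMP4 and PRSS22. Of the genes this rule names, 2 are not reported here. Older symbols were matched through RefSeq synonyms.

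Same-numbered libraries of RQ and WT deviated from their group means together. Over all tested genes these deviations correlated at 0.291, 0.525 and 0.472 in control and at 0.148, 0.147 and 0.15 in arsenite. In control they correlated at 0.014, 0.239 and 0.309 for S181E with WT and at -0.043, 0.05 and 0.421 for Y396E with WT. For arsenite with control they reached 0.153, in S181E replicate 3. No label says what the numbers share.

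Alternatives were DESeq2 1.42.0, other scalings and filters, genes of all types, a fit of the compared groups alone, a replicate block, the parental libraries in the fit, other folds and leaving out each library.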

Additional observations from a re-analysis of the deposited data

Results flagged for a closer look

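The arsenite response of KLK5 differed between Y396E and WT by 0.58 ± 0.18 on the log2 scale. KLK5 changed by -0.92 in WT and by -0.35 in Y396E, and each of the 3 arsenite libraries of WT lay below the WT control libraries while those of Y396E overlapped. The value is built from differences from WT that chose the gene, so it is no independent evidence that the responses differ. Over the alternatives it ranged from 0.47 to 0.70, and its adjusted p from 0.0088 to 0.0781. KLK5 had between 366 and 405 counts in total in the Y396E groups, against 1460 to 2234 in the WT groups.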

How the results depend on the processing

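No called value reversed under the alternatives, and 30 values without a call had the other sign. Of the 6 genes, the number called for the arsenite response of Y396E against WT was 2 with library totals only (KLK5 and SYTL2, the latter at -0.36), and 0 with only the groups compared. For RQ against WT in arsenite it was 2 with DESeq2 and 2 with only the groups compared. With a fold threshold of 2 it was 2 for arsenite in WT, 2 in RQ and 2 in S181E, and 0 for RQ against WT in control, 0 in arsenite and 0 for the Y396E response. List genes called in Y396E against WT in arsenite numbered 12 with only the groups compared. With a fold threshold of 2, list genes called numbered 6 for S181E in control, 5 for S181E in arsenite, 6 for Y396E in control and 6 for Y396E in arsenite. Leaving out 1 library at a time gave 0 to 1 of the 6 genes for RQ against WT in arsenite, 0 to 1 for the Y396E response, 0 to 1 for the S181E response, 0 to 1 for Y396E against S181E in arsenite, and 13 to 24 list genes for Y396E against WT in arsenite. The gain for the S181E response was KLK5 without S181E arsenite replicate 2 (adjusted p = 0.0497), and that for Y396E against S181E was KLK5 without Y396E arsenite replicate 2 (0.0391). The cause of these changes was not tested. With a replicate block, ZBED2 differed between RQ and WT by -0.80 in control and -0.81 in arsenite (adjusted p = 0.00151 and 0.0255), and the block changed no call of the 6 genes. The number of the 6 genes nearer to WT and RQ in the parental line stayed at 2 in each treatment under each alternative run. The parental position ranged from 38.2% to 40.9% for SYTL2 and from -12.7% to -6.0% for MKX in control. The arsenite change of MKX passed the threshold in S181E with only the groups compared (-0.39, adjusted p = 0.00779), in Y396E with DESeq2 (-0.38, 0.0484), and in either under some alternatives that left out 1 library, at -0.40 to -0.65. Of the 3306 other single-gene values, 3264 kept their direction and side of the threshold or moved within their error, 14 gained a call, 25 lost one and 3 moved by more.

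Depth limits the low side of each gene. The lowest group held 144 counts, ZBED2 in RQ in arsenite, and the parental values rest on 1 library each. No paired analysis was possible for the parental libraries because they carry no replicates.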
